A study of Mus musculus with 16 samples.

Results

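Adam11, Adam22 and Adam23 encode catalytically inactive members of the ADAM (a disintegrin and metalloprotease) family, and Lgi1, Lgi2, Lgi3 and Lgi4 encode the secreted leucine-rich glioma-inactivated proteins that bind them. These 7 genes were taken by symbol from 24968 genes with a unique symbol, and all 7 passed the filter on low values in every comparison. The data were bulk RNA-seq libraries of micro-dissected dorsal hippocampus from 3 trained and 3 untrained adult ArcCreERT2::eYFPflx mice on a C57BL/6 background. This allele pair, in which the Arc gene drives a tamoxifen-dependent Cre and Cre switches on a yellow fluorescent reporter, was carried by trained and untrained animals alike. Trained mice learned to avoid a shock zone on a rotating arena (active place avoidance) and were tested for the memory a day later, whereas untrained mice walked on the same arena with the shock never on. The labels gave 3 trained and 3 untrained libraries for CA1, 3 and 2 for CA3, and 3 and 2 for the dentate gyrus (DG), which makes 9 trained and 7 untrained libraries. Replicate numbers were read as naming an animal within a training group, so the subregions of an animal are not independent samples.

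In the brain, LGI1 is released at synapses and along axons, where its C-terminal repeats bind ADAM22 and ADAM23. ADAM22 on the postsynaptic side reaches scaffold proteins and AMPA-type glutamate receptors, ADAM23 lies mainly on the presynaptic side, and the same complex is found with Kv1 potassium channels on axons. Loss of LGI1 or ADAM22 causes seizures in mice, and LGI1 is both an epilepsy gene and a target of autoantibodies in limbic encephalitis, a disease of the hippocampus and its memory functions. LGI4 is best known from glia, where it acts in the myelination of peripheral nerve, and LGI3 is found at axons together with Kv1 channels.

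The sequences that follow show why Adam11, Adam22 and Adam23 are read as receptors and not as proteases. Active ADAM proteases hold a zinc ion with histidines of the metzincin zinc-binding motif, next to a catalytic glutamate. Capitals mark the codons of the first histidine, the glutamate and the second histidine in Adam9 and Adam12, and the codons aligned to them in the 3 receptors. Each line gives 24 bases, which are 8 codons, from 5′ to 3′ on the coding strand of the longest open reading frame in the GENCODE transcripts of GRCm38.
Adam9, chr8:24990335-24990358, minus strand, exon 11: CATGAAttggggCATaaccttgga
Adam12, chr7:133961167-133961190, minus strand, exon 11: CATGAGctgggcCACaacttcggg
Adam11, chr11:102773613-102773636, plus strand, exon 13: CAGACGctagggCAGaacttgggc
Adam22, chr5:8143073-8143096, minus strand, exon 13: CAGTCActagccCACaatgtcggt
Adam23, chr1:63547763-63547786, plus strand, exon 13: CAGAGCctggctCAAaaccttgga

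The stretch lies in coding exon sequence of each gene and in exon 13 of all 3 receptors. Of the 3 marked residues, Adam11 and Adam23 kept 0 and Adam22 kept 1. The full motif was found in 13 of 20 other ADAM genes and in 0 of the 3 receptors.

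In GRCm38, Adam11 spans chr11:102761439-102780262 on the plus strand, Adam22 chr5:8072352-8368160 on the minus strand and Adam23 chr1:63445891-63596276 on the plus strand. Lgi1 spans chr19:38264536-38312214 on the plus strand, Lgi2 chr5:52533517-52566462 on the minus strand, Lgi3 chr14:70530685-70538324 on the plus strand and Lgi4 chr7:31059342-31070935 on the plus strand. Lgi1 overlaps the antisense gene Gm42723, Lgi2 the antisense gene Gm43685, and Lgi4 the protein-coding gene Fxyd3 on the opposite strand. Adam22 overlaps the processed pseudogene Gm21759 and the small nucleolar RNA gene Gm23993, and Adam23 the small nuclear RNA gene Gm22281, also on the opposite strand. Adam22, Lgi1 and Lgi2 overlap further annotated genes on their own strand. Whether strand was used in quantification is not given in the sources used here, so reads of these 5 genes and their partners may not be separated. Adam11 and Lgi3 overlap no other annotated gene.

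The deposited values are normalized estimated counts, not whole reads, with sums from 7606553 to 7984144 per library, so the read depth behind a value is unknown. The subregion labels were checked against marker genes before the members were described. DG granule cell markers (Prox1, C1ql2, Dsp, Stxbp6 and Lct) were as high in libraries labelled CA1 or CA3 as in those labelled DG: Prox1, a transcription factor of granule cells, averaged 3536 in CA1, 3648 in CA3 and 3665 in DG libraries. Between CA1 and CA3 the differences of pyramidal markers lay mostly on the side of the labels without passing: the 4 CA1 markers were at log2 differences of 0.97 (Fibcd1) to 1.30 (Wfs1), with limma adjusted p from 0.0794 to 0.398, and of the CA3 markers Cpne4, Grik4 and Nectin3 were at -0.38, -0.41 and -0.35 (limma adjusted p = 0.0973, 0.0967 and 0.332), Iyd at -0.60 and Coch at 0.22. In the limma fits no CA1, CA3 or DG marker passed in any comparison between subregions. The 4 CA1 pyramidal markers summed to 3079 to 4998 in untrained CA1 libraries and to 1528 to 1943 in trained CA1 libraries. A subregion is therefore named here as the label of a library. Sex-linked transcripts also followed training: Xist was 7601 to 19592 in the trained libraries, 25.5 to 52.4 in 6 of the 7 untrained ones and 10587 in CA3 untrained replicate 1, although both sexes were assigned to each condition. CA3 untrained replicate 1 thus went against the CA1 and DG libraries of the same number, with Xist at 26.1 and 25.5. Its deviations from the group means had correlations of -0.01 with that CA1 and -0.04 with that DG library. All pairs read as 1 animal lay between -0.11 and 0.09, so these values cannot decide whether the libraries come from 1 animal. Values that leave out an animal rest on the replicate numbers. In addition, 7 libraries (all 3 CA1 trained, CA3 trained replicates 1 and 2, and both DG untrained) held 7567 to 9758 genes at 0, against 3124 to 5944 in the other 9. Training and sex-linked transcripts cannot be told apart in these libraries, and neither can training and the number of genes at 0 within CA1, where the trained libraries held more of them, or within DG, where the untrained libraries did. As in any bulk tissue, a change in the number of cells of a type and a change in RNA per cell cannot be separated either.

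**Figure D1:**
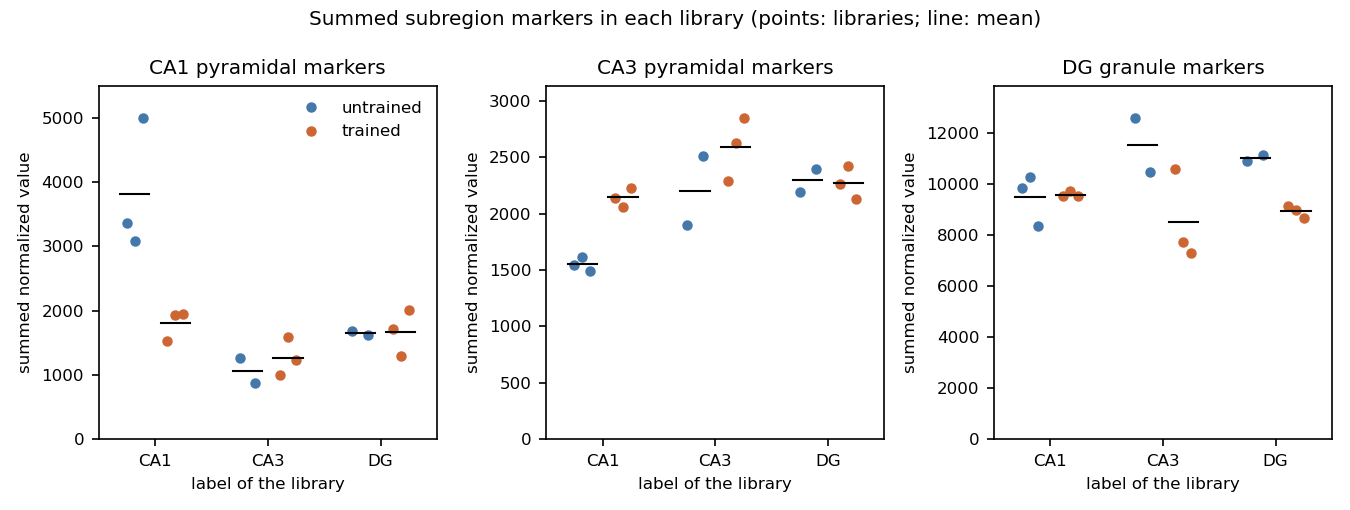
Summed normalized values of CA1 pyramidal, CA3 pyramidal and DG granule cell markers (vertical axes) in each of the 16 libraries, by labelled subregion and training, with a line at each group's mean. DG granule markers reach 8351 to 10256 in the CA1 untrained libraries and 8680 to 9146 in the DG trained libraries, and CA1 markers stand highest in the CA1 untrained libraries.

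All 7 genes were detected in every library. Adam22 had the highest normalized value, with a mean of 2748 ± 152 (SD, n = 16), and 98.0% of the 23499 genes with a value above 0 had a lower mean. Lgi1 followed with 2338 ± 222, Adam11 with 1403 ± 336, Adam23 with 1365 ± 105, Lgi3 with 708 ± 71.5, Lgi2 with 315 ± 46.9 and Lgi4 with 248 ± 27.8. Across the libraries Adam11 was the most variable of the 7, with a coefficient of variation of 24.0%, and Adam22 the least, with 5.53%.

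Levels of different genes were compared per kb of annotated exons. On that scale Adam11 stood at 247 ± 59.3 per kb, Lgi1 at 206 ± 19.6, Adam22 at 192 ± 10.6 and Lgi3 at 182 ± 18.3 (SD, n = 16), and these 4 overlapped. The first place of Adam11 came from the trained libraries, in which it averaged 290.4 ± 39.5 per kb (n = 9), whereas in the untrained ones (n = 7) Lgi1 stood at 213 ± 27.8, Adam11 at 192 ± 20.0, Adam22 at 190.1 ± 11.5 and Lgi3 at 167 ± 14.9. Adam23 at 76.2 ± 5.87, Lgi4 at 54.0 ± 6.07 and Lgi2 at 48.3 ± 7.19 per kb lay lower, and Lgi4 and Lgi2 did not differ beyond their spread. The order of the upper genes depended on the length used: per kb of the longest transcript, Lgi1 had 301, Adam22 had 297, Adam11 had 275, Lgi3 had 223 and Adam23 had 212. Lgi2 and Lgi4 were the lowest with either length, at 48.8 and 61.3 per kb of the longest transcript.

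**Figure D2:**
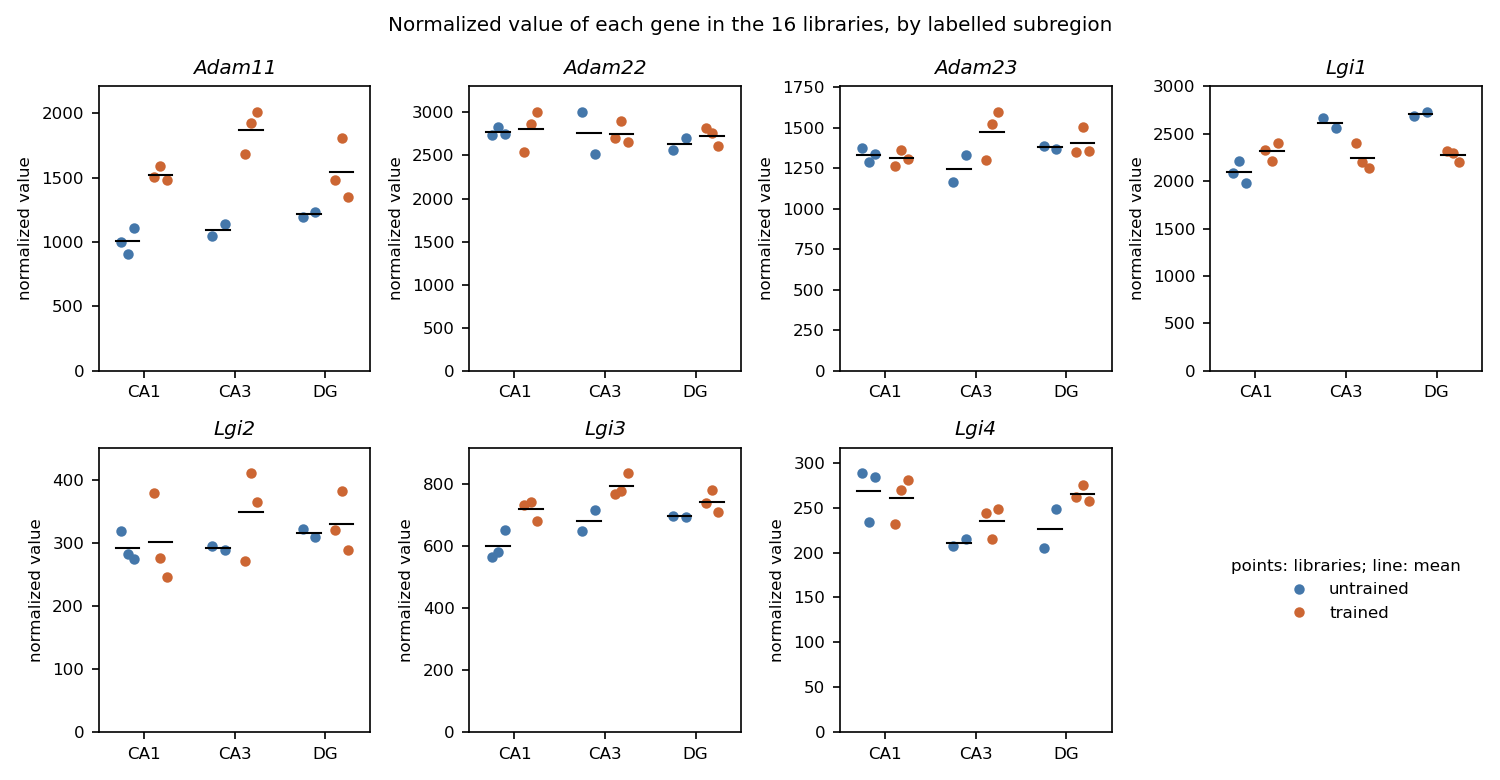
Normalized value of each of the 7 genes (vertical axis, from 0) in the 16 libraries by labelled subregion, untrained in blue and trained in orange, with a line at each group's mean. Adam11 is higher in every trained library than in any untrained one, while Lgi1 lies higher in trained CA1 and lower in trained CA3 and DG.

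The training comparison asks which hippocampal genes differ after the recall of a place avoidance memory. The 7 genes were chosen by family after results of this comparison, their normalized values in trained and untrained libraries, were known, so these values are given as a description and without a p-value. Of the receptors, Adam11 stood apart. Its values in CA1 were 999, 908 and 1109 in untrained replicates 1 to 3 and 1501, 1588 and 1478 in trained replicates 1 to 3. In CA3 they were 1049 and 1141 in the untrained and 1685, 1921 and 2009 in the trained libraries. In DG they were 1192 and 1235 in the untrained and 1480, 1805 and 1350 in the trained libraries. The lowest trained library, DG replicate 3 with 1350, thus lay above the highest untrained library, DG replicate 3 with 1235, and the groups did not overlap within or across subregions. Among all genes tested, 1.62% were higher in trained libraries without overlap in each of the 3 subregions, and 0.62% without overlap across all 16 libraries.

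The log2 fold change of Adam11 from log2(value + 2), trained minus untrained, was 0.60 (SE 0.070) in CA1, 0.77 (SE 0.090) in CA3 and 0.34 (SE 0.10) in DG. The DG value was 0.22 without trained replicate 2, the library with 1805. Over all libraries, with subregion as a term, it was 0.57 (SE 0.068). This corresponds to a 1.49-fold higher level, and 4.86% of all genes tested had a larger absolute change. Whether the difference in DG was smaller than that in CA3 was not tested.

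Adam22, the receptor that joins LGI1 to the postsynaptic scaffold, had nearly equal mean values in both conditions. In CA1 they were 2735, 2834 and 2748 in the untrained and 2545, 2871 and 3001 in the trained libraries, in CA3 3006 and 2515 against 2702, 2904 and 2651, and in DG 2561 and 2699 against 2820, 2764 and 2610. The groups overlapped in each subregion. Its log2 fold change over all libraries was 0.02 (SE 0.043). With a covariate for sex-linked transcripts the same log2 fold change was -0.21 (SE 0.090), the opposite direction. This covariate, log2 Y-linked minus log2 Xist, nearly followed training. It was 2.39 to 3.66 in 6 untrained libraries, -6.19 in CA3 untrained replicate 1 and -12.7 to -5.53 in the trained ones. CA3 untrained replicate 1 also had the highest Adam22 value, and without it and DG trained replicate 3 the log2 fold change was 0.06 (SE 0.043).

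Adam23, the presynaptic receptor, also overlapped between conditions in each subregion. Its values were 1376, 1290 and 1337 against 1267, 1364 and 1311 in CA1, 1166 and 1331 against 1302, 1527 and 1599 in CA3, and 1388 and 1371 against 1351, 1507 and 1358 in DG (untrained against trained). The log2 fold change was -0.02 (SE 0.059) in CA1, 0.24 (SE 0.10) in CA3 and 0.03 (SE 0.072) in DG. In CA3 it was 0.14 without untrained replicate 1, and with each library left out in turn it ranged from -0.05 to 0.0037 in CA1 and from -0.03 to 0.05 in DG. Over all libraries it was 0.07 (SE 0.051), from 0.04 to 0.12 with each animal left out in turn, and 0.24 (SE 0.12) with the covariate for sex-linked transcripts.

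Lgi1, the best characterised ligand, differed between conditions on opposite sides in different labelled subregions. In CA1 its values were 2088, 2208 and 1977 in the untrained and 2328, 2209 and 2403 in the trained libraries, so that the closest pair, both near 2208, were almost equal. In CA3 the untrained libraries had 2662 and 2555 and the trained ones 2399, 2201 and 2139. In DG the untrained libraries had 2691 and 2730 and the trained ones 2315, 2300 and 2207. The trained libraries were thus higher in CA1 and lower in CA3 and DG, without overlap in each, a pattern that 16 genes or 0.109% of all genes tested showed. The log2 fold changes were 0.15 (SE 0.056) in CA1, -0.22 (SE 0.077) in CA3 and -0.25 (SE 0.061) in DG, and the difference between them was not tested. The libraries rich in genes at 0 were the trained ones in CA1 and the untrained ones in DG, and the part of this split in Lgi1 was not tested. Over all libraries the log2 fold change of Lgi1 was -0.09 (SE 0.053). Trained libraries lay close together across subregions, averaging 2313 ± 98.0 under the CA1 label, 2246 ± 136 under CA3 and 2274 ± 58.6 under DG (SD, n = 3 each), whereas untrained libraries ranged from 1977 in CA1 to 2730 in DG.

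The median sum of the DG granule cell markers was lower in trained than in untrained CA3 and DG libraries, the side of Lgi1, with overlap in CA3. In the DG comparison 2 of the 5 markers passed, Prox1 and Stxbp6, which fell by 0.31 and 0.44 on the log2 scale (limma adjusted p = 0.00969 and 0.00446). C1ql2 was at -0.04 there, and in CA3 0 of the 5 markers passed in limma. The 5 markers summed to 10466 to 12584 in untrained and 7283 to 10571 in trained CA3 libraries, to 10899 to 11136 in untrained and 8680 to 9146 in trained DG libraries, and to 8351 to 10256 against 9514 to 9710 in CA1. Across the 16 libraries the correlation of log2 Lgi1 with their log2 sum was 0.75 (Pearson; Spearman 0.76), and it was 0.70 without the 2 libraries of most extreme sum. It was 0.79 within the 9 trained and 0.85 within the 7 untrained libraries. The part of these markers in the Lgi1 values was not tested.

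Lgi3 lay on the same side as Adam11, with smaller differences. Its values were 566, 583 and 652 in untrained and 732, 742 and 682 in trained CA1 libraries, 648 and 717 in untrained and 770, 780 and 835 in trained CA3 libraries, and 697 and 695 in untrained and 738, 780 and 712 in trained DG libraries. Trained libraries were higher without overlap within each subregion, although the trained CA1 library with 682 lay below the untrained CA3 library with 717. The log2 fold change was 0.26 (SE 0.076) in CA1, 0.22 (SE 0.083) in CA3, 0.09 (SE 0.080) in DG and 0.20 (SE 0.046) over all libraries. The DG value was 0.06 without trained replicate 2.

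Lgi2 and Lgi4 had the lowest values, and their conditions overlapped except for Lgi4 in DG. Lgi2 ranged from 247 to 380 in CA1, from 271 to 411 in CA3 and from 290 to 383 in DG among trained libraries, and from 276 to 319, 290 to 296 and 310 to 322 among untrained ones, so that the trained libraries enclosed the untrained range in each subregion. Its log2 fold change was 0.02 (SE 0.13) in CA1, 0.23 (SE 0.16) in CA3, 0.06 (SE 0.12) in DG and 0.10 (SE 0.091) over all libraries. These values rested on single libraries, since with each left out in turn they ranged from -0.15 to 0.15 in CA1, from 0.10 (without trained replicate 2) to 0.40 (without trained replicate 1) in CA3 and from -0.05 to 0.15 in DG. Over all libraries Lgi2 ranged from 0.04 to 0.16 with each animal left out in turn. Lgi4 had 232 to 280 in trained and 233 to 288 in untrained CA1 libraries, and 215 to 248 against 207 to 215 in CA3, with log2 fold changes of -0.04 (SE 0.11) and 0.15 (SE 0.11), and 0.10 (SE 0.069) over all libraries. With each animal left out in turn, Lgi4 ranged from -0.14 to 0.04 in CA1, from 0.11 to 0.22 in CA3 and from 0.07 to 0.15 over all libraries. In DG it had 258 to 276 in trained and 205 to 248 in untrained libraries, with a log2 fold change of 0.23 (SE 0.12) that was 0.09 without untrained replicate 1 and 0.37 without untrained replicate 3.

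Without overlap between conditions there were 3 of 7 genes in CA1 (24% of all genes tested), 3 of 7 in CA3 (33.9%), 4 of 7 in DG (35.6%) and 1 of 7, Adam11, over all libraries, where 0.62% of all genes were higher in trained libraries without overlap. The last count was 0 after the libraries were rescaled by the upper quartile of values above 0. In CA3 the count was 5 without trained replicate 1 and 6 without untrained replicate 2, which leaves 1 untrained library, and over all libraries it was 2 without trained replicate 3, when Lgi3 joined Adam11. With the covariate for sex-linked transcripts, the log2 fold change over all libraries was 0.63 (SE 0.17) for Adam11, 0.26 (SE 0.11) for Lgi3 and -0.19 (SE 0.13) for Lgi1. Adam11 was also 0.57 on the log2 scale without the 2 libraries with the highest Y-linked values beside a high Xist. These were CA3 untrained replicate 1 and DG trained replicate 3, with the Y-linked Uty at 144 and 152. CA1 trained replicates 1 and 3 and CA3 trained replicate 3 stayed in this fit. They also held both kinds of transcript, with a high Xist and Uty at 58.7, 54.7 and 51.4. Adam11 was at 0.54 with a term for the 7 libraries rich in genes at 0. The upper-quartile rescaling took each library's own values above 0. It moved the median log2 change of all genes to -0.14 over all libraries, -0.47 in CA1, -0.23 in CA3 and 0.40 in DG. Under it Lgi3 in CA1 and CA3 and Lgi1 in CA1 and DG turned direction. Relative to that median, Lgi3 was at 0.26 in CA1 and 0.23 in CA3, and Lgi1 at 0.14 in CA1 and -0.25 in DG. With the upper quartile taken over genes above 0 in every library, the median was -0.01 over all libraries, -0.02 in CA1, -0.02 in CA3 and 0.03 in DG.

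**Figure D3:**
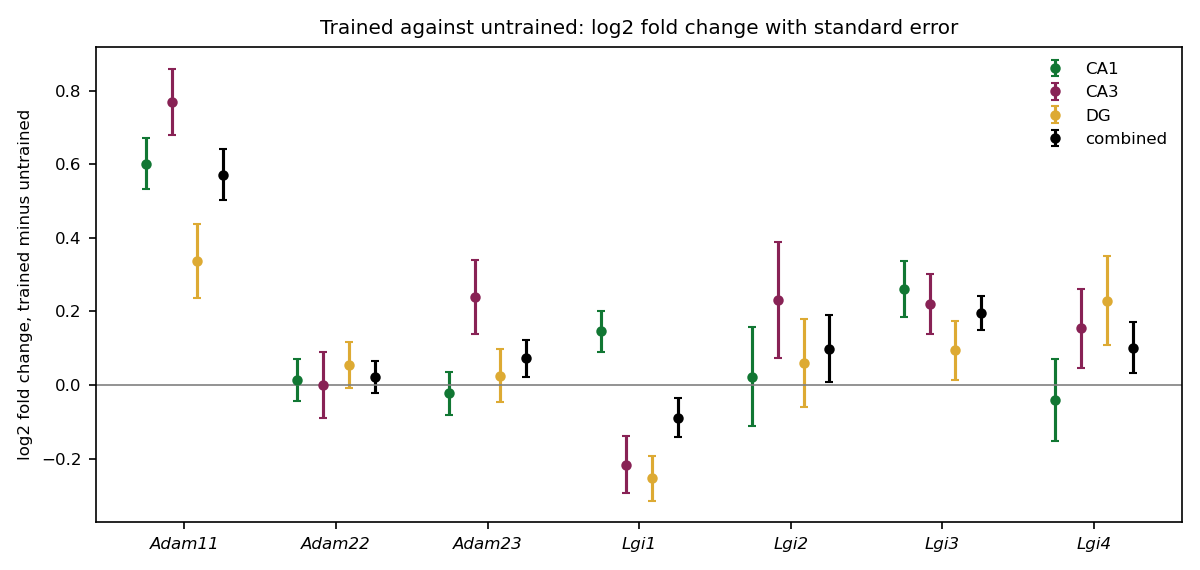
Log2 fold change between trained and untrained libraries (vertical axis, from log2(value + 2)) of each gene in CA1, CA3, DG and over all libraries, with its standard error. Adam11 lies between 0.34 and 0.77 in all 4 fits, Adam22 lies near 0, and Lgi1 is above 0 in CA1 and below 0 in CA3 and DG.

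Ratios within a library do not depend on how libraries were scaled against each other. The ratio of Adam11 to Adam22 values was 0.493 to 0.758 in the 9 trained and 0.320 to 0.465 in the 7 untrained libraries. The ratio of Adam11 to Adam23 was 0.994 to 1.29 in trained and 0.704 to 0.901 in untrained libraries. For both ratios the conditions did not overlap, as the values of these genes given above already fix. The ratio of Adam23 to Adam22 overlapped, with 0.437 to 0.603 in trained and 0.388 to 0.542 in untrained libraries. Between ligands, the ratio of Lgi3 to Lgi1 was 0.319 to 0.390 in trained and 0.243 to 0.281 in untrained libraries of CA3 and DG, and overlapped in CA1 with 0.284 to 0.336 against 0.264 to 0.330.

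**Figure D4:**
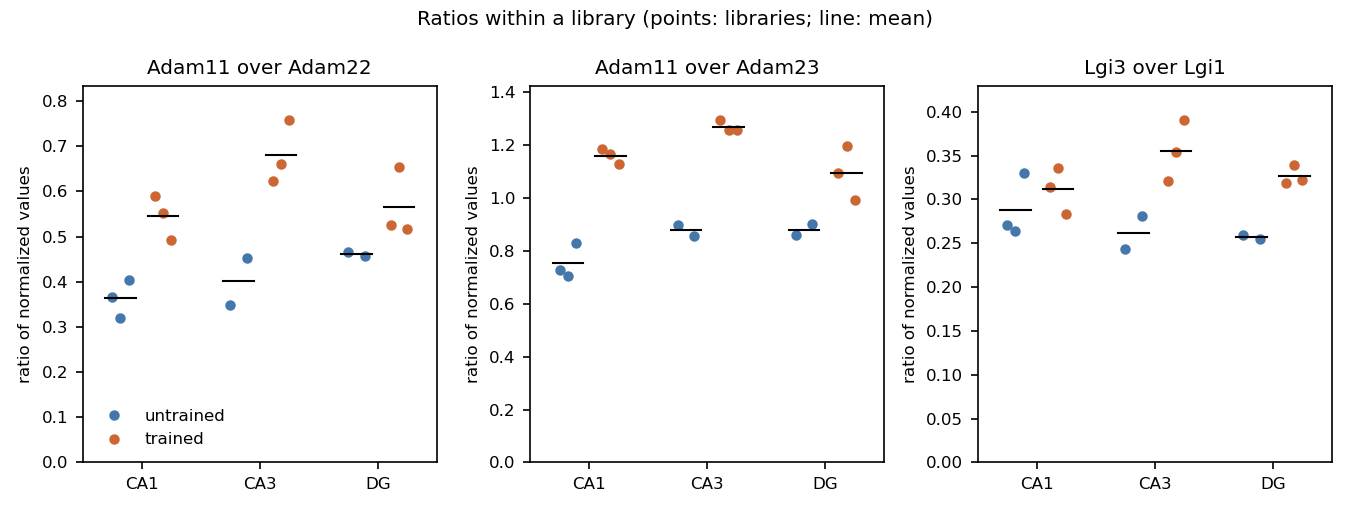
Ratio of normalized values within each library (vertical axes, from 0) for Adam11 over Adam22, Adam11 over Adam23 and Lgi3 over Lgi1, by labelled subregion and training, with a line at each group's mean. The trained libraries lie above the untrained ones for both Adam11 ratios in every subregion, with the lowest trained ratio to Adam23 at 0.994 and the highest untrained one at 0.901.

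The comparison between labelled subregions, fitted over all 16 libraries with training as a term, is not the contrast behind the choice of the genes and was tested with limma. In it 0 of the 7 genes passed, either between CA1 and CA3 (0.211% of all genes tested), between CA1 and DG (1.95%) or between CA3 and DG (0% of all genes). Before adjustment, 3, 2 and 0 of the 7 genes had a p under 0.05. Between CA1 and CA3 these were Adam11, Lgi3 and Lgi4. Adam11 had means of 1264 ± 293 (n = 6) in CA1 and 1561 ± 443 (n = 5) in CA3, a log2 difference of -0.23 (95% interval -0.40 to -0.06, limma adjusted p = 0.338), which was -0.29 in trained and -0.13 in untrained libraries alone. Lgi3 had means of 660 ± 73.8 and 750 ± 70.7, a log2 difference of -0.17 (-0.28 to -0.05, limma adjusted p = 0.258). Lgi4 lay the other way with 264 ± 25.4 in CA1 and 226 ± 18.9 in CA3, a log2 difference of 0.23 (0.06 to 0.41, limma adjusted p = 0.319), which was 0.14 in trained and 0.34 in untrained libraries alone. The libraries of the subregions overlapped for all 7 genes in each comparison, while 0.832%, 2.47% and 0.641% of all genes did not overlap between CA1 and CA3, CA1 and DG, and CA3 and DG.

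Between CA1 and DG the pair with an unadjusted p under 0.05 was Lgi1 and Lgi3. Lgi1 had means of 2202 ± 155 (n = 6) in CA1 and 2448 ± 243 (n = 5) in DG, a log2 difference of -0.16 (95% interval -0.29 to -0.03, limma adjusted p = 0.197), which was -0.09 without untrained replicate 3 and -0.11 without untrained replicate 1. In untrained libraries alone the same difference was -0.38 and passed in limma (adjusted p = 0.0145), and in trained libraries alone it was 0.02 (adjusted p = 0.869). Genes at 0 numbered 3124 to 5425 in untrained CA1 and 7567 to 8636 in untrained DG libraries. In trained libraries they numbered 8323 to 9758 in CA1 and 3479 to 5944 in DG. Subregion label and genes at 0 thus cannot be told apart within either training group. Lgi1 also passed, at -0.18 with a limma adjusted p of 0.0255, when the 6 groups of subregion and training were fitted separately. Lgi3 had 660 ± 73.8 in CA1 and 725 ± 35.7 in DG, a log2 difference of -0.12 (-0.24 to -0.01, limma adjusted p = 0.258), which was -0.05 in trained and -0.22 in untrained libraries alone. Markers of other cell types passed between CA1 and DG as well, Fn1 of the subiculum list at 0.79 (limma adjusted p = 0.0413) and the endothelial Cdh5 at 0.74 (limma adjusted p = 0.0469), while the endothelial Cldn5 was at 0.70 (limma adjusted p = 0.053). The 4 endothelial markers summed to 537 to 631 in CA1 and 278 to 578 in DG libraries, and their part in the differences of Lgi1, Lgi3 and other genes between these labels was not tested.

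For the receptors Adam22 and Adam23 the subregion differences lay near 0 over all libraries. Adam22 differed by 0.02 between CA1 and CA3 (95% interval -0.08 to 0.13), by 0.05 between CA1 and DG (-0.05 to 0.16) and by 0.03 between CA3 and DG (-0.08 to 0.14) on the log2 scale. Adam23 differed by -0.05 (-0.17 to 0.08), -0.07 (-0.19 to 0.06) and -0.02 (-0.15 to 0.11). Between CA1 and CA3 its difference was -0.16 in trained and 0.098 in untrained libraries alone, and -0.12 without untrained replicate 1. Lgi2 had the widest intervals, from -0.35 to 0.10 between CA1 and CA3 and from -0.36 to 0.10 between CA1 and DG. Because DG granule cell markers were equally high under all 3 labels, these intervals describe the labelled libraries.

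**Figure D5:**
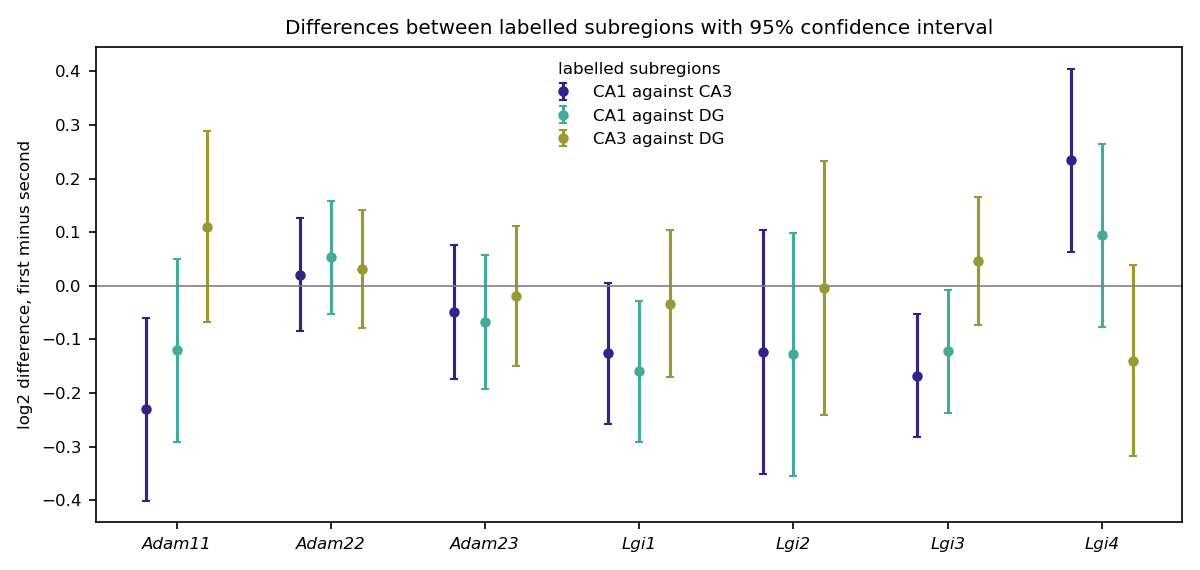
Log2 difference between labelled subregions (vertical axis, first minus second, from log2(value + 2)) of each gene with its 95% confidence interval. No gene passed after adjustment over all genes, and the largest differences are those of Adam11 at -0.23 and Lgi4 at 0.23 between CA1 and CA3.

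Proteins known to work with the LGI-ADAM22 complex were followed in a list of 40 partner genes, of which 39 passed the filter: scaffolds, AMPA receptor subunits and their auxiliary subunits, Kv1 channels and their partners, presynaptic proteins, Nogo receptors and phosphoserine-binding adaptors. Adgrv1 and Tspear were listed with them only for repeats like those of LGI proteins. This list and the gene lists below were chosen with earlier results of these data known. Their p-values over all libraries count several libraries of each animal. Over all libraries 7 rose and 2 fell with training and 30 did not pass, with a median log2 change of 0.03 against -0.01 over all genes, of which 6.28% rose and 4.06% fell. Among them were adaptors of the family that binds phosphorylated ADAM22: Ywhag rose from 7220 ± 697 (SD, n = 7) to 9255 ± 471 (n = 9), a log2 change of 0.35 (SE 0.044, limma adjusted p = 6.34e-05), and Ywhah from 5545 ± 667 to 6865 ± 571, a log2 change of 0.29 (SE 0.045, limma adjusted p = 0.000369). Stx1a, a presynaptic membrane fusion protein, rose from 340 ± 45.2 to 446 ± 52.9, a log2 change of 0.38 (SE 0.080, limma adjusted p = 0.00435). Adgrv1, a large receptor with repeats like those of LGI proteins, fell from 87.0 ± 22.3 to 55.1 ± 11.97 by 0.63 on the log2 scale (SE 0.15, limma adjusted p = 0.00855). Kcnab1, an auxiliary subunit of Kv1 channels, fell from 1399 ± 243 to 1164 ± 106 by 0.23 (SE 0.058, limma adjusted p = 0.013).

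The other risers were Cacng2 (stargazin, which carries AMPA receptors to the synapse) with a log2 change of 0.27, Rtn4r (the Nogo receptor) with 0.28, Kcnab2 with 0.17 and the scaffold Dlg2 with 0.12; they were named after their values were seen. The AMPA receptor subunits Gria1, Gria2, Gria3 and Gria4 and the scaffold Dlg4 did not pass, with log2 changes of -0.05, 0.02, -0.07, 0.05 and 0.03. The count of 9 was 3 without trained replicate 2, 3 without untrained replicate 1, 4 without untrained replicate 2 and 0 with the covariate for sex-linked transcripts, which nearly followed training.

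Within subregions, 4 partner genes rose and 2 fell in CA1, 0 rose and 1 fell in CA3, and 2 rose and 0 fell in DG, beside 3.53% risers and 1.7% fallers among all genes tested in CA1, 0.737% and 0.116% in CA3, and 1.74% and 1.66% in DG. In CA1 Ywhah rose by 0.33 (SE 0.041, limma adjusted p = 7.15e-05), Ywhag by 0.38 (SE 0.051) and Rtn4r by 0.52 (SE 0.10), from 363 ± 61.6 to 517 ± 12.6 (SD, n = 3 each). Kcnab1 and Cntnap2, which clusters Kv1 channels along axons, fell by 0.39 and 0.27 in CA1. In CA3 the gene called was Adgrv1, listed only for its repeats, which fell by 1.01 (SE 0.17, limma adjusted p = 0.0305), from 108 ± 13.0 (n = 2) to 52.9 ± 7.15 (n = 3). In DG Stx1a rose by 0.41 (SE 0.099, limma adjusted p = 0.0324) and Ywhag by 0.27 (SE 0.069, limma adjusted p = 0.0497). The counts of 6, 1 and 2 changed with the animals: in CA1 it was 3 without trained replicate 1 or trained replicate 2, in CA3 it was 3 without trained replicate 1 and 0 without trained replicate 2, trained replicate 3 or untrained replicate 1, and in DG it was 0 when any of the 3 trained replicates was left out, 1 without untrained replicate 1 and 6 without untrained replicate 3.

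Between labelled subregions, 3 partner genes passed between CA1 and DG, where 1.12% of all genes were higher and 0.832% lower in CA1, and 0 passed in the other comparisons. Gria3, an AMPA receptor subunit, was higher in CA1 with 2566 ± 94.0 (n = 6) against 2192 ± 130 (n = 5), a log2 difference of 0.22 (SE 0.044, limma adjusted p = 0.0136). Ywhah was lower in CA1 by 0.24 (log2 difference -0.24, limma adjusted p = 0.0227), as was Rtn4rl1, a Nogo receptor homologue (-0.24, limma adjusted p = 0.0344). Their number was 1 without trained replicate 1 or untrained replicate 3 and 0 without trained replicate 2. Between CA1 and CA3 the limma fit called 0 partner genes, and 1 without trained replicate 1.

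Among 20 other ADAM genes, most of them proteases, 12 passed the filter over all libraries and 0 of them passed the limma test between trained and untrained libraries, beside 10.3% of all genes tested. Adam10, a main shedding protease of neurons, fell in CA1 from 976 ± 27.1 to 821 ± 42.1 by 0.25 on the log2 scale (SE 0.066, limma adjusted p = 0.0313), which is the direction opposite to that of Adam11. Adam12 was higher in trained DG libraries, with 44.3 ± 9.48 against 17.4 ± 9.66, a log2 change of 1.33 (SE 0.34, limma adjusted p = 0.0427), at a level near the filter of 10.

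Of 29 other synaptic genes with leucine-rich repeats, the fold that LGI proteins share, 4 rose and 4 fell over all libraries, beside 6.28% risers and 4.06% fallers among all genes tested, with a median log2 change of -0.02 against -0.01 over all genes. Lingo1, a neuronal co-receptor, rose from 995 ± 153 to 1376 ± 124 (0.46, SE 0.070, limma adjusted p = 0.000582), Lrrtm1, a synapse organiser, by 0.25 and Lrfn3 by 0.34. Lingo3 fell by 0.36 (SE 0.067, limma adjusted p = 0.00153), Flrt2 by 0.24 and Slitrk5 by 0.17. In CA1 2 of 28 rose, Lrfn1 and Lingo1 by 0.62 and 0.51, and Flrt2 fell by 0.30 (3.53% risers and 1.7% fallers among all genes tested). In CA3 3 of 28 rose, Lingo1, Lrrc4b and Lrfn1 by 0.59, 0.61 and 0.64, and 0 fell (0.737% and 0.116%). In DG 0 of 29 passed in limma (1.74% and 1.66%). Flrt3, an adhesion protein that binds latrophilins, was the gene of this list that differed between labelled subregions, with 385 ± 40.8 in CA1, 497 ± 48.8 in CA3 and 533 ± 27.5 in DG. Its log2 differences were -0.35 from CA3 (limma adjusted p = 0.0371) and -0.46 from DG (limma adjusted p = 0.00262).

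The genes most like each member across the 16 libraries were ranked by Pearson correlation of log2(value + 2) among 14669 genes. For Adam11 they were Wscd1 (0.96), Dnm1, the dynamin of synaptic vesicle recycling (0.96), and Tln2 (0.95), and for Lgi3 they were Slc25a22, a mitochondrial glutamate carrier (0.96), Wscd1 (0.95) and Vamp1, a synaptic vesicle protein (0.95). For Lgi1 they were Maco1 (0.91), Kctd4 (0.90) and Prkcd (0.89). For Adam23 they were Thsd7b (0.90), the calcium pump gene Atp2a2 (0.89) and Thsd4 (0.89), and for Lgi2 they were Nrsn2 (0.87), Cpne2 (0.84) and Rarb (0.83). Lgi4 was closest to Itpka (0.85), Tmsb15b2 (0.84) and a septin gene listed under a date as 6-Sep (0.80). Adam22 had no close companion, since its nearest genes Lrba, Setd4 and Zfp973 reached 0.78, 0.74 and 0.74. These libraries share animals and scaling, so the values are a description.

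Among the members themselves, Adam11 and Lgi3 had a correlation of 0.91 over the 16 libraries, 0.89 within the 9 trained and 0.88 within the 7 untrained, and 0.77 between their deviations from the 6 group means. Adam11 and Adam23 had 0.64 over all libraries, 0.82 within trained and 0.39 within untrained libraries, and 0.76 between deviations. Adam22 had between -0.22 and 0.20 with each of the others, and Lgi1 and Lgi4 had -0.60, which was 0.26 within trained and -0.80 within untrained libraries.

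Markers of several cell types also differed between conditions, beside the values of Adam11 and Lgi3. Of 4 glutamatergic neuron markers, Slc17a7, the vesicular glutamate transporter, and Nrgn, neurogranin, rose over all libraries by 0.27 and 0.33 on the log2 scale (limma adjusted p = 0.00121 and 0.0394), and 3 of the 4 rose in CA1, where they summed to 62096 to 65036 in trained and 52588 to 58518 in untrained libraries. Of 5 CA3 pyramidal markers, 4 passed in CA1: Nectin3, Grik4 and Cpne4 rose by 0.83, 0.56 and 0.37 and Coch fell by 1.497, so that the sum of this list joins opposite changes. Over all libraries Nectin3 and Grik4 rose by 0.62 and 0.45 and Coch fell by 1.14. Of 6 astrocyte markers, Aqp4, the water channel of astrocyte endfeet, and Gja1 fell over all libraries by 0.30 and 0.18. Of 5 choroid plexus markers, Ttr and Clic6 fell in CA3, with log2 changes of -3.29 (limma adjusted p = 7.19e-06) and -2.55, and the list summed to 236 to 317 in trained and 809 to 1120 in untrained CA3 libraries. Slc32a1, the vesicular GABA transporter, was the only 1 of 6 interneuron markers that passed over all libraries, rising by 0.35 (limma adjusted p = 0.00489). Gad1, Gad2, Pvalb, Sst and Vip were at 0.05, -0.06, 0.06, 0.38 and 0.24 without passing. Among 4 oligodendrocyte precursor markers, Olig1 and Olig2 rose over all libraries by 0.31 each (limma adjusted p = 0.00941 and 0.044). The CA2 marker Map3k15 and the DG marker Lct, each 1 of 5 in its list, fell by 1.09 and 0.33. Within subregions, Fibcd1 fell by 1.32 and Lct by 0.20 in CA1, along with Aqp4, and Sst and Olig1 rose by 0.82 and 0.51 in CA3. In DG, Flt1, Slc17a6, Map3k15 and Pcp4 fell by 0.94, 1.32, 1.68 and 0.38. None of these markers was at 0 in all libraries of a group.

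Pairs of a member and a marker list were picked after their values were seen among 7 genes and 14 marker lists. Lgi3 had a correlation of 0.87 with the summed CA3 pyramidal markers (0.86 without the 2 libraries of most extreme sum, 0.80 within trained and 0.84 within untrained libraries), and Adam11 had 0.76 with the same sum (0.73, 0.87 and 0.71). Adam11 had -0.79 with the summed astrocyte markers, which was -0.95 within trained and -0.07 within untrained libraries. The astrocyte markers summed to 9122 to 11325 in trained and 10248 to 11309 in untrained libraries. Lgi4, known from glia, had 0.11 with the summed oligodendrocyte markers and 0.03 with the summed astrocyte markers. The part of these cell types in the values of the members was not tested.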

How the data were processed

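Bulk RNA-seq of micro-dissected CA1, CA3 and DG was analysed in 16 libraries. The authors prepared libraries after rRNA depletion (the label names polyA RNA), used STAR for alignment and Salmon for quantification, and compared groups with DESeq2. The signal the authors deposited is a normalized estimated count per gene. The submitters' processing notes name bcl2fastq 2.20, FastQC, Trim Galore and GRCm38, whereas the methods also name a later build. Depth cannot be recovered, so no counting interval is given. Each file held 24972 rows, of which 4 with 2 repeated symbols were left out. Of 24968 symbols, 24464 were found in GENCODE M21.

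Values were tested with limma 3.58.1 in R 4.3.3 on log2(value + 2), using the trend and robust options and adjusting p-values by Benjamini-Hochberg over all genes that reached 10 in at least 2 libraries (3 for training in CA1). On this scale the change of low genes is understated. The threshold was an adjusted p of 0.05. The method was tested on simulated data. The members and lists were chosen with earlier results of these data known, and p-values over all libraries count several libraries of each of the 3 animals per condition. Libraries read as the same animal did not deviate together from their group means (correlations from -0.11 to 0.09 over 14 pairs), and trained and untrained animals share only a number. Named genes were all members, up to 3 called genes of each list per comparison and direction, and the 3 genes most like each member. Other genes were named after their values were seen, where stated. Alternatives covered the pseudocount, scaling, filter, robust estimation, replicate block, covariates, fit and each animal left out. Scaling by the upper quartile of genes above 0 in every library, and leaving out the 2 libraries with the highest Y-linked values beside a high Xist, were chosen after seeing the data. Sequences were read from GENCODE transcripts, whose longest open reading frames were aligned with Biopython 1.88. RT-qPCR and spatial transcriptomics were not analysed here.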

Additional observations from a re-analysis of the deposited data

Results flagged for a closer look

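Lgi1 differed between conditions on opposite sides in different subregions. Every trained CA1 library was higher than every untrained one (log2 fold change 0.15), while every trained CA3 library was lower (log2 fold change -0.22), as was every trained DG library (log2 fold change -0.25). The gene was chosen with these values known, so no p-value is given for the changes, and the difference between subregions was not tested. The margin in CA1 was narrow, since the lowest trained and the highest untrained library both had a value near 2208. The libraries rich in genes at 0 were the trained ones in CA1 and the untrained ones in DG, so Lgi1 was higher on that side in both. In CA3, trained replicates 1 and 2 were rich in genes at 0, and Lgi1 was lower in them than in the untrained libraries. The part of this split in the Lgi1 values was not tested.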

How the results depend on the processing

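Between subregions no call of a member changed, except that 1 instead of 0 of the 7 genes (Lgi1) passed between CA1 and DG with 6 groups in one fit and in untrained libraries alone. Within the untrained libraries, the CA1 and DG labels and the number of genes at 0 cannot be told apart. In the training comparison, upper-quartile rescaling over values above 0 turned the direction, by more than the spread between libraries, of Adam22 (-0.11) and Adam23 (-0.056) over all libraries, of Adam22 (-0.46), Lgi1 (-0.33), Lgi2 (-0.45) and Lgi3 (-0.22) in CA1, of Adam22 (-0.23), Lgi3 (-0.0072) and Lgi4 (-0.072) in CA3 and of Lgi1 (0.16) in DG. Relative to the median of all genes under it, Adam11 was at 0.58, 0.60, 0.77 and 0.34 and Lgi1 at -0.08, 0.14, -0.21 and -0.25 over all libraries, in CA1, CA3 and DG. Calls among all genes were split 77 higher and 9373 lower in CA1 and 5984 higher and 15 lower in DG under it, against 479 and 231 in CA1 and 242 and 231 in DG. With the upper quartile taken over genes above 0 in every library, they were 438 and 308 in CA1 and 323 and 152 in DG. Adam22 also turned with the sex-linked covariate (-0.21) and, in CA3, without untrained replicate 2 (-0.13, against 0.13 without untrained replicate 1). Members without overlap over all libraries were 0 instead of 1 under upper-quartile rescaling. With each animal left out they ranged from 1 to 2 over all libraries, 3 to 4 in CA1, 3 to 6 in CA3 and 4 to 5 in DG.

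Partner genes called changed more. Upper-quartile rescaling gave 0 between CA1 and DG, 1 over all libraries, 31 in CA1, 0 in CA3 and 28 in DG. Between CA1 and CA3 there was 1 without CA3 untrained replicate 1 and there were 2 with a term for the 7 libraries rich in genes at 0 and 2 with 6 groups in one fit, and between CA1 and DG there was 1 in trained libraries alone. The sex-linked covariate gave 0 over all libraries. In CA3 there were 2 without a filter, 2 with a value of 10 in every library, 0 without robust estimation, 8 with the replicate block and 3 with 6 groups in one fit, and in DG 1 with a pseudocount of 0.5, 1 without robust estimation, 1 with the replicate block and 1 with 6 groups in one fit. Without CA3 untrained replicate 1 and DG trained replicate 3 there were 4 between CA1 and DG, 0 in CA3 and 0 in DG. With each animal left out they ranged from 0 to 1 between CA1 and CA3, 0 to 3 between CA1 and DG, 3 to 9 over all libraries, 3 to 8 in CA1, 0 to 3 in CA3 and 0 to 6 in DG. The cause was not tested. The replicate block changed no call of a member between subregions. In the check of replicate numbers, libraries of trained and untrained animals with the same number had correlations from -0.18 to 0.12, and the block of animal and number leaves few degrees of freedom in CA3 and DG. Per kb of the longest transcript, in place of all exons, Adam22 was at 297, Adam23 at 212, Lgi1 at 301, Lgi3 at 223 and Lgi4 at 61.3. Depth is unknown, and Lgi2 and Lgi4, with the lowest values, had the widest intervals among the 7 genes.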
